A study of Mus musculus with 2 samples.

Results

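The vascular endothelial growth factor (VEGF) family was described here as 10 genes: the ligands Vegfa, Vegfb, Vegfc, Vegfd and Pgf, the tyrosine kinase receptors Flt1, Kdr and Flt4, and the co-receptors Nrp1 and Nrp2. Probe sets were chosen by symbol: the only gene symbol in the platform annotation had to be 1 of these names. All 10 genes had such a probe set, of 18193 genes on the array, and together they held 25 of the 45037 probe sets other than controls. No measured value entered that rule, but the family was taken up with the signals of these arrays, that of Vegfd among them, already known, so every value is given as a description.

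The samples were mouse embryonic fibroblasts, the primary mesenchymal cells that grow from minced embryos, and the study compared 1 culture homozygous for the L307R allele of Phc2 (Phc2 L307R/L307R, called Phc2 L307R) with 1 wild-type culture. Both were C57BL/6, taken at embryonic day 12.5, used at passage 1 and grown in serum-containing medium. Phc2 is a subunit of the Polycomb repressive complex PRC1, which compacts chromatin and keeps developmental genes silent, and the L307R change lies in its SAM domain, through which the protein polymerises. With 1 Affymetrix array per genotype there was no replicate, no test was possible and no p-value was computed. The sources used here do not say how many embryos stood behind each culture.

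VEGF ligands are secreted dimers that guide the growth of blood and lymphatic vessels. Vegfa binds the receptors encoded by Flt1 and Kdr, Vegfb and Pgf bind that of Flt1, and Vegfc, once cut by proteases, binds those of Kdr and Flt4. Mouse Vegfd binds the receptor of Flt4 and, unlike the human protein, not that of Kdr. The receptors act chiefly in endothelial cells, whereas fibroblasts are a common source of the ligands, and the neuropilins also serve as receptors for class 3 semaphorins.

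The family differed little between the cultures, with 1 exception. Only Vegfd passed a 2-fold difference, at 2.90-fold higher in Phc2 L307R, and it did so at 1 of its 3 probe sets. Of the 24 measured probe sets, 23 lay within 1.5-fold of equal signal in either direction, as did 91.3% of all 20737 measured probe sets that carry 1 symbol. A probe set counted as measured when its signal lay above a floor of 94.8, the higher of the arrays' median signals, on at least 1 array. A lower signal was raised to the floor, so a ratio with 1 array under it is a bound. Signals are the authors' linear MAS5 intensities, and each difference is a log2 ratio, Phc2 L307R minus wild type. Each probe set binds with its own strength, so levels of different genes were not ranked, and a summed signal over a list serves only to compare the 2 arrays.

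**Figure D1:**
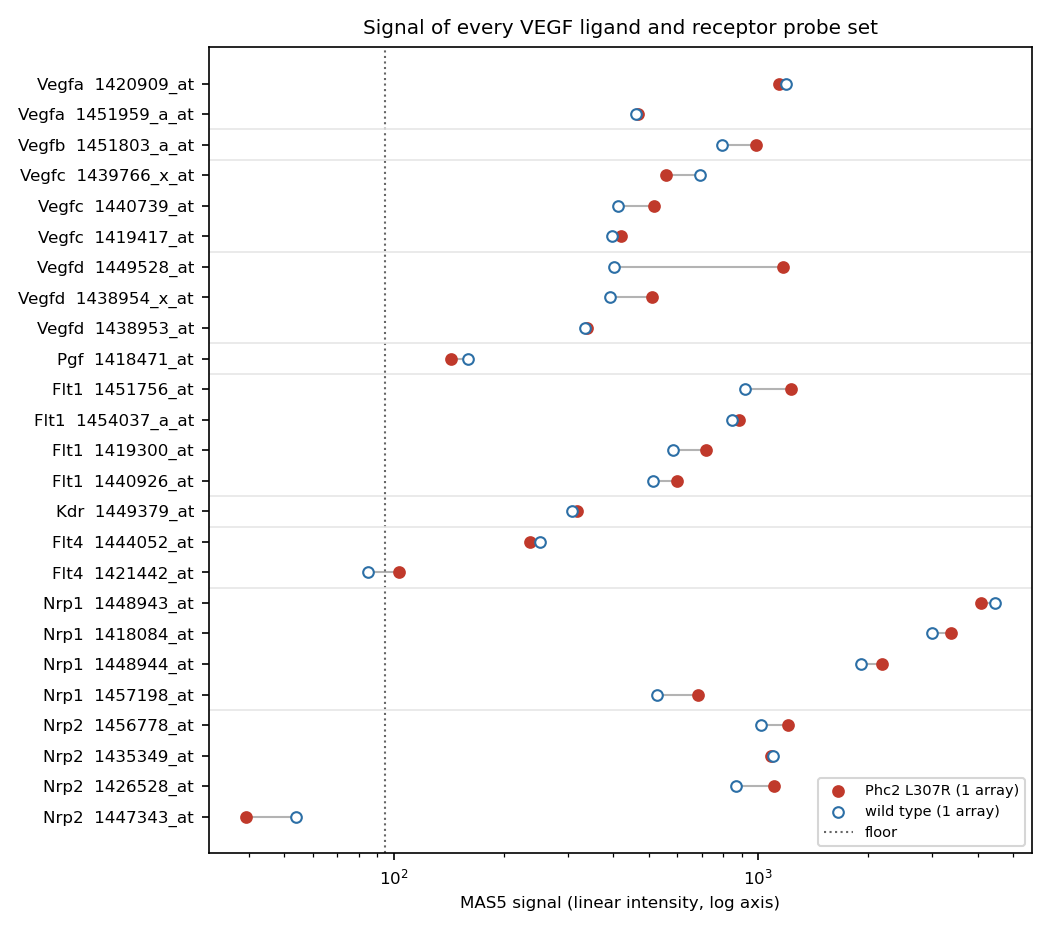
MAS5 signal (linear intensity, log axis) of each of the 25 probe sets of the 10 genes, with Phc2 L307R as filled red points and wild type as open blue points, 1 array each, and the floor of 94.8 as a dotted line. Probe set 1449528_at of Vegfd has the longest gap among measured probe sets, 1167 in Phc2 L307R and 402.8 in wild type, and 1447343_at of Nrp2 lies under the floor on both arrays.

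By median signal and rank order the arrays were alike, though the highest signal, control probe sets included, was 43746 in Phc2 L307R and 33491 in wild type. Their median signals were 94.3 in Phc2 L307R and 94.8 in wild type, and the Spearman correlation across probe sets was 0.955. Of 11408 measured genes, 0.579% passed 2-fold upward in Phc2 L307R and 0.535% passed it downward. Among single probe sets the shares were 0.55% upward and 0.984% downward. Phc2 had signals of 4079 in Phc2 L307R and 3184 in wild type at probe set 1416048_at, and of 3103 in Phc2 L307R and 3145 in wild type at 1437239_x_at. A missense allele need not alter transcript amount, so these values do not check the genotypes. All 12 fibroblast markers were measured, among them the collagens. So were 11408 of 18193 genes and 16 of 18 chondrocyte markers, so being measured does not identify the cell type.

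Vegfd (formerly Figf), a ligand of lymphatic growth first known as a Fos-induced factor of fibroblasts, held the largest log2 ratio of the family. At probe set 1449528_at, which represents the gene because it was the brightest of its probe sets, the signal was 1167 in Phc2 L307R and 402.8 in wild type, a log2 ratio of 1.54. At 1438954_x_at the signal was 512.2 in Phc2 L307R and 391.9 in wild type, a log2 ratio of 0.39. The suffix _x_at marks probes that may also bind other transcripts. At 1438953_at the signal was 338.6 in Phc2 L307R and 333.8 in wild type, a log2 ratio of 0.02. Phc2 L307R was thus far above wild type at 1449528_at, somewhat above it at 1438954_x_at and level with it at 1438953_at, whose log2 ratio turned to -0.04 when ratios were centred on the median of all genes.

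The value at 1449528_at was rare among all probe sets. It was matched or exceeded by 21 of the 20737 measured probe sets, itself included, and by 4 of 4038 (0.0991%) whose mean log2 signal lay within 0.5 of its own. By its representing probe set, Vegfd ranked 10 from the top among 11408 measured genes. The measured genes next above it in log2 ratio were the clone-named 2610316D01Rik at 1.54 or more and Matn1, a cartilage matrix protein, at 1.62 or more, both with wild type under the floor, and those next below were Nrn1 at 1.51 and Trnp1 at 1.49. A likeness in 1 ratio between 2 arrays says nothing of shared control.

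The disagreement among the probe sets of Vegfd was itself unusual. Their log2 ratios spanned 1.51, where the median span was 0.49 across the 2324 genes that had 3 or more measured probe sets, and 54 of these genes (2.32%) spanned as much. Of the 26 such genes in which 1 or more probe sets passed 2-fold upward, 23 had a single such probe set and 0 had all of them, so the pattern of Vegfd was the usual one among these genes. These 26 were selected for such a probe set, and only 0.55% of all measured probe sets passed 2-fold upward, so the selection favours single ones. The mean over its probe sets was 0.65 ± 0.79 (SD over 3 probe sets of 1 pair of arrays, which is a technical spread). Which part of the transcript each probe set reads was not analysed here. The measured genes next to Vegfd on the X chromosome differed little: on the side of lower position Pir was at 0.27 and Car5b at 0.12 or more, and on the side of higher position Piga was at 0.00 and Mospd2 at -0.11. These neighbours were looked up after the value of Vegfd was known.

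Vegfc, the closest relative of Vegfd and the main ligand of lymphatic sprouting, had probe sets that pointed in opposite directions. The signal of 1439766_x_at, its brightest, was 558.5 in Phc2 L307R and 693.3 in wild type, a log2 ratio of -0.31. That of 1440739_at was 516.1 in Phc2 L307R and 412.0 in wild type, a log2 ratio of 0.33. The remaining probe set, 1419417_at, gave 420.0 in Phc2 L307R and 396.0 in wild type, a log2 ratio of 0.08. Their SD of 0.32 was close to the pooled SD between probe sets of 1 gene, also 0.32 over 5460 genes, and no direction can be given for Vegfc.

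The promoters of Vegfd and Vegfc are shown because the pair encodes closely related ligands and differs widely in CpG content, a feature of interest because Polycomb complexes in mouse embryonic stem cells occupy CpG-rich promoters. The stretches are the 250 bases before the annotated start, from RefSeq (build GRCm38.p6), 5′ to 3′ on the + strand, with each CpG dinucleotide in capitals. Vegfd lies at chrX:164373272-164373521 and Vegfc at chr8:54077282-54077531.
Vegfd: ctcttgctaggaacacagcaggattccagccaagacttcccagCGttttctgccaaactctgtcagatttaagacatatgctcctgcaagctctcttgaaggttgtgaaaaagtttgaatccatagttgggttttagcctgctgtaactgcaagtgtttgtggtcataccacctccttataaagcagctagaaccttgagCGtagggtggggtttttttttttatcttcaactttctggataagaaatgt
Vegfc: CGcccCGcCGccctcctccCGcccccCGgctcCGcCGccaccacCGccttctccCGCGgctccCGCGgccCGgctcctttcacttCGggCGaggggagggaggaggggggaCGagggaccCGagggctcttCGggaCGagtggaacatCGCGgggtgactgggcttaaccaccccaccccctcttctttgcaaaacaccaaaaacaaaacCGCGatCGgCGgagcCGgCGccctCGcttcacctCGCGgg
The Vegfd stretch holds 2 CpG dinucleotides and the Vegfc stretch 30. Over windows of 300 bases, from 250 before to 50 after the start, the ratio of observed to expected CpG was 0.15 for Vegfd and 0.96 for Vegfc, at percentiles 21.2 and 91.6 of 32841 promoters. A ratio of at least 0.6 with at least 50% G and C was met by 7 of the 12 windows of the family, which belong to Vegfb, Vegfc, Pgf (1 of 2), Flt1, Kdr, Flt4 and Nrp2, and by 33.5% of all promoters. Vegfd had the lowest ratio of the 12 and the largest difference in signal, but 1 gene cannot show a relation, and no chromatin was measured here.

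**Figure D2:**
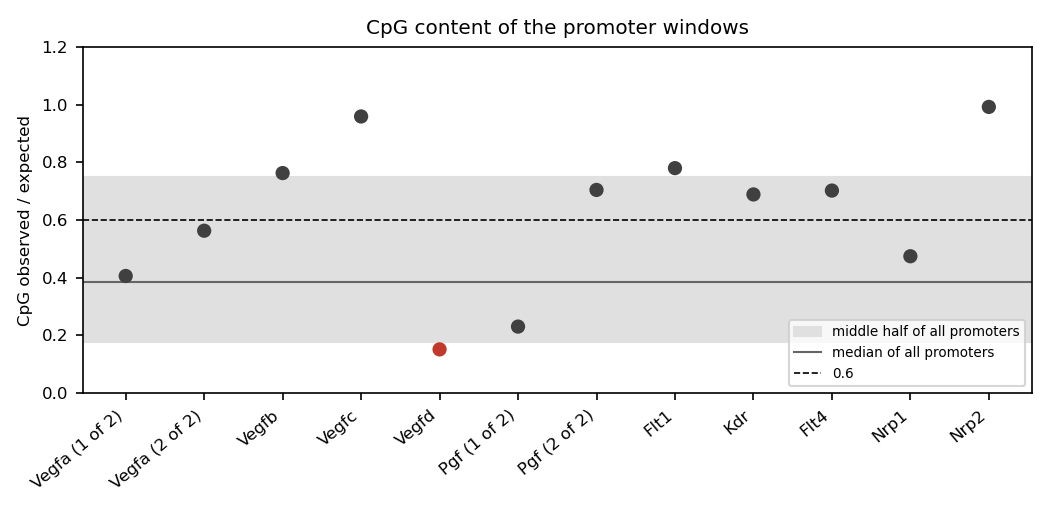
Ratio of observed to expected CpG in the 12 promoter windows of the 10 genes, with Vegfd in red, the middle 50% of all promoters shaded, their median as a line and the ratio of 0.6 dashed. Vegfd is lowest at 0.15 and Nrp2 highest at 0.99.

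Short motifs were searched in the same windows on both strands. GGGCGG, the GC box bound by Sp factors, was found in 10 of 12 windows of the family and in 35.7% of all promoters; it contains a CpG, so it follows CpG content. The exceptions were Vegfd and 1 window of Pgf. TATAAA, the TATA box, was found in Vegfd and Flt1, and in 13.6% of all promoters. ACGTG, 1 form of the core of the site of hypoxia-inducible factors, was found in 1 window, of Vegfa, and in 19.6% of all promoters. Other forms of that core were not searched. TGANTCA, a loose form of the AP-1 site with any base at N, was found in 0 of 12 and in 7.81% of all. A match is only a match of letters in these windows.

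Vegfa, the principal ligand of blood vessel growth and a target of hypoxia-inducible factors, was nearly equal in the cultures. Its signal was 1141 in Phc2 L307R and 1190 in wild type at 1420909_at, a log2 ratio of -0.06, and 467.9 in Phc2 L307R and 460.4 in wild type at 1451959_a_at, a log2 ratio of 0.02. Vegfb, a ligand with roles in heart and fat tissue, had 985.1 in Phc2 L307R and 797.2 in wild type at its only probe set, a log2 ratio of 0.31. Pgf, the placental growth factor, had 143.9 in Phc2 L307R and 159.9 in wild type, a log2 ratio of -0.15. Both of the last are smaller than the usual SD between probe sets, and neither has a second probe set to set beside it.

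**Figure D3:**
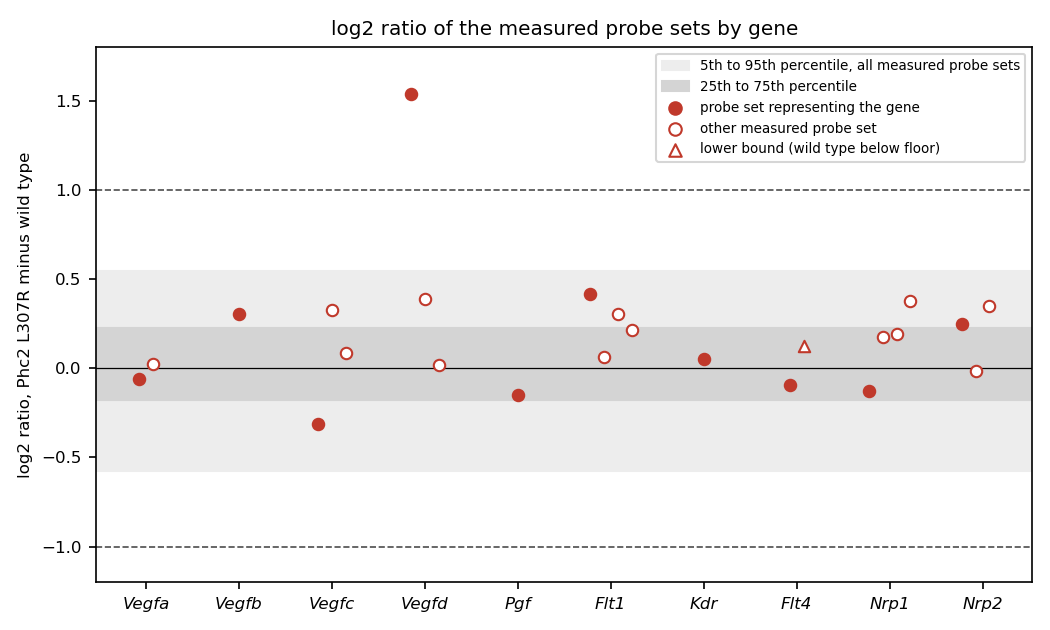
log2 ratio (Phc2 L307R minus wild type) of each measured probe set by gene, with the representing probe set filled, a lower bound as a triangle, 2-fold lines dashed, and grey bands for the middle 50% and 90% of all measured probe sets. The 3 probe sets of Vegfd run from 0.02 to 1.54, and every other point lies between -0.31 and 0.42.

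Flt1, whose product binds Vegfa, Vegfb and Pgf and has a secreted form that traps them, was the only member besides Vegfd with several probe sets that were all higher in Phc2 L307R. Its 4 probe sets gave log2 ratios of 0.42, 0.06, 0.30 and 0.21. At the brightest, 1451756_at, the signal was 1230 in Phc2 L307R and 922.1 in wild type. At 1454037_a_at, whose suffix marks probes shared by transcripts of 1 gene, it was 885.9 in Phc2 L307R and 848.2 in wild type. The mean was 0.25 ± 0.15 (SD over 4 probe sets), under 1.5-fold throughout.

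Kdr, the main signalling receptor for Vegfa, had 318.7 in Phc2 L307R and 307.4 in wild type, a log2 ratio of 0.05 at 1 probe set. Flt4, the receptor of lymphatic endothelium, had 235.7 in Phc2 L307R and 251.6 in wild type at 1444052_at, which differ by -0.09 in log2. A dimmer probe set of Flt4, 1421442_at, read 103.5 in Phc2 L307R and 85.1 in wild type, with wild type under the floor, which leaves a ratio of at least 0.13. These receptors are known from endothelial cells, and markers of such cells were mostly low here. Of 20 endothelial markers, 9 were measured, with 4 higher and 5 lower in Phc2 L307R and a summed signal over all 20 of 3398 in Phc2 L307R and 3733 in wild type. Among all measured genes, 59.1% were higher in Phc2 L307R and 0.535% were at least 2-fold lower. Pecam1, Cdh5, Vwf and Tie1, which define endothelium, lay below the floor on both arrays. Other markers were clearly measured, among them Eng, at 1088 in Phc2 L307R and 1171 in wild type, a log2 ratio of -0.11 (-0.48 at another probe set). Cd34 had 553.9 in Phc2 L307R and 776.5 in wild type, a log2 ratio of -0.49, and Ramp2 was at 0.56. Emcn, the sialomucin endomucin, passed 2-fold at -1.15, with signals of 94.9 in Phc2 L307R, just above the floor of 94.8, and 210.8 in wild type. In RNA from a whole culture, fewer cells of a type and less RNA per cell cannot be told apart.

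The neuropilins, which bind VEGF and class 3 semaphorins and are expressed by many mesenchymal cells, had several probe sets each. Those of Nrp1 gave log2 ratios of -0.13, 0.17, 0.19 and 0.38. The brightest, 1448943_at, was the lower one, with 4079 in Phc2 L307R and 4451 in wild type. The dimmest, 1457198_at, had 684.4 in Phc2 L307R and 526.7 in wild type. Nrp2 gave 0.25 at 1456778_at, with 1210 in Phc2 L307R and 1017 in wild type. Its other measured probe sets gave -0.02 at 1435349_at and 0.35 at 1426528_at, and 1447343_at lay under the floor at 39.3 in Phc2 L307R and 54.0 in wild type. All of these differences are of the order of the disagreement between probe sets.

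As a family the direction depended on how a gene was represented. With the brightest probe set of each gene, 5 of 10 genes were above 0 and 5 below, with a median log2 ratio of -0.00, against 59.1% of all measured genes above 0 and a median of 0.06. With the mean over probe sets, 8 were above 0 and 2 below, with a median of 0.10. Counted singly, 18 of the 24 measured probe sets were above 0, and 54.3% of all measured probe sets were. Their median was 0.15, against 0.03 for all. With ratios centred on the median of all measured genes, 15 of the 24 were above 0, against 45.7% of all probe sets, and 4 of the 10 genes were. Probe sets of 1 gene read the same RNA, so these counts hold fewer independent values than their number.

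Genes that mature or bind VEGF ligands were compared next, with 1 probe set per gene. Vegfc and Vegfd are released from longer precursors by proteases. Of 13 maturation genes on the array, 10 were measured, 3 above 0 and 7 below, with a median log2 ratio of -0.06 and 0 past 2-fold. Furin, Pcsk6 and Pcsk7, all proprotein convertases, were at -0.09, -0.07 and -0.07, while Pcsk5 was at -0.82, with signals of 107.5 in Phc2 L307R and 189.6 in wild type. Next farthest from 0 were Ctsd at 0.29 and Mmp2 at 0.28 (0.19 at another probe set). Adamts3, which completes the cleavage of Vegfc, was at 0.11, and Ccbe1, its cofactor, lay below the floor on both arrays. Of 17 binding partners, all were measured, 12 above 0 and 5 below, with a median of 0.17 and 0 past 2-fold. Among all measured genes 59.1% were above 0, with a median of 0.06. Those farthest from 0 were the syndecan Sdc4 at 0.92 (-0.22 at another probe set), decorin (Dcn) at 0.88, perlecan (Hspg2) at 0.67 and Thbs2, an inhibitor of vessel growth, at 0.58 (-0.21 to 0.35 at other probe sets).

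The neuropilins pair with plexins to bind semaphorins. Of 12 class 3 semaphorins and plexins, 11 were measured, 9 above 0 and 2 below, with a median of 0.22. The shares over all measured genes were 59.1% above 0 and 0.579% at least 2-fold higher. Sema3f, the preferred semaphorin of Nrp2, was the only one past 2-fold, with signals of 1307 in Phc2 L307R and 610.5 in wild type, a log2 ratio of 1.10, and its other probe sets gave 0.71 and 0.77. Sema3b was at 0.92 (0.495 at another probe set), and the plexin Plxna2 at 0.65 (0.28 to 0.54 at others). Sema3a, the classical ligand of Nrp1, was at 0.49, but its other probe sets ran from -0.51 to 0.08.

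Genes that act below the receptors centred on the background, which was a median of 0.06 with 59.1% of all measured genes above 0. Of 35 measured signalling genes, 19 were above 0 and 16 below, with a median of 0.05 and 0 past 2-fold. The kinase Src was at 0.97 and 0.96 at its probe sets, with signals of 560.2 in Phc2 L307R and 286.3 in wild type at the brighter one, and its relative Yes1 was at -0.58 and -0.54. Epn1, an endocytic adaptor, was at 0.67 and the phosphatase Ptprj at 0.65. Hypoxia-inducible factors control Vegfa. Of 24 measured genes among these factors, their regulators and their targets, 14 were above 0 and 10 below, with a median of 0.11 and 0 past 2-fold. Adm (adrenomedullin) was at 0.67 and 0.65, Pdk1 at 0.43 (-0.15 to 0.29 at others), the glucose transporter Slc2a1 at -0.39 (-0.10 to 0.05 at others) and Ddit4 at 0.32. Of 6 measured angiopoietin and Tie genes, 5 were above 0 and 1 below, with a median of 0.40. Angpt1 was at 0.62 and 0.59, Angptl4 at -0.55, Svep1 at 0.47 and the receptor Tek at 0.44 or more, its wild-type signal being under the floor. Tek and Tie1 also stand among the endothelial markers, as does Ptprb of the signalling genes, and Dcn and Mcam stand in 2 lists each.

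**Figure D4:**
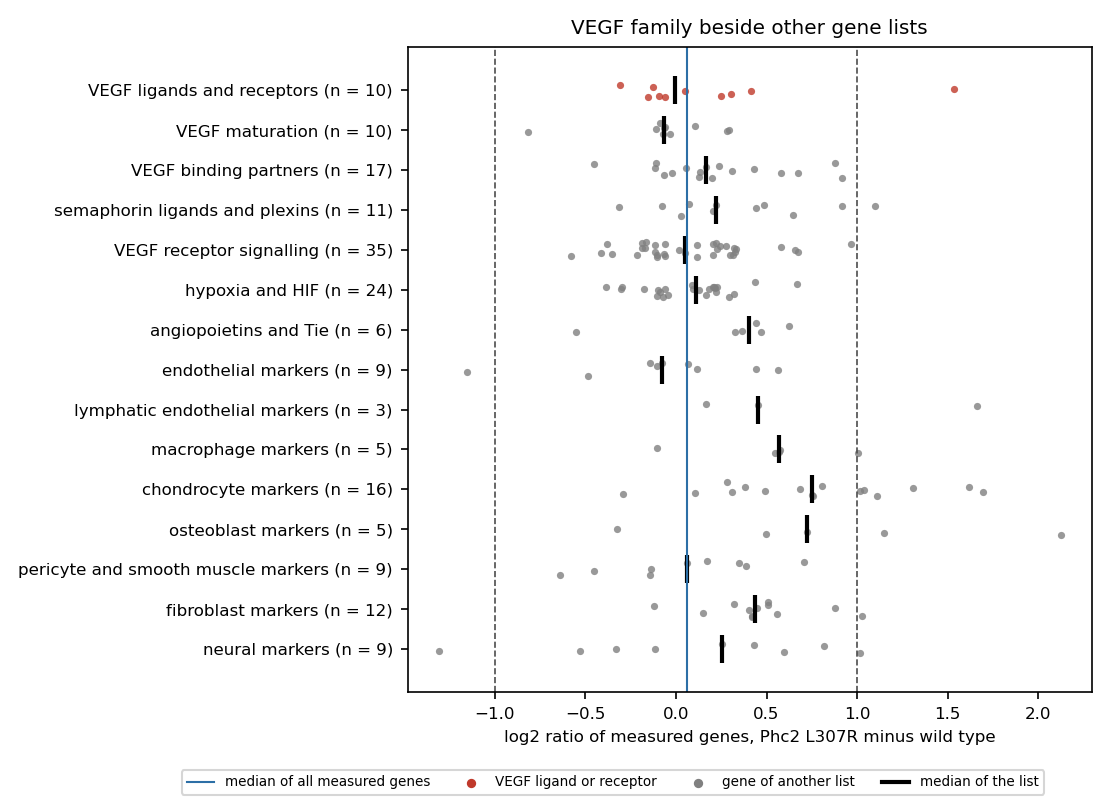
log2 ratio (Phc2 L307R minus wild type) of each measured gene, 1 row per list, with the median of the list as a black bar, the median of all measured genes as a blue line and 2-fold lines dashed. The VEGF family, in red, has a median of -0.00, with Vegfd alone past 2-fold.

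Markers of other cell types differed on the same pair of arrays, and their part in the value of Vegfd was not tested. Among all measured genes 59.1% were above 0 and 0.579% at least 2-fold higher, with a median of 0.06. Of 18 chondrocyte markers, 16 were measured and 15 lay above 0, 6 of them past 2-fold, with a median of 0.75, and the summed signal of all 18 was 15556 in Phc2 L307R and 10838 in wild type. Of 6 osteoblast markers on the array, 5 were measured, 4 of them above 0 and 2 past 2-fold, with a median of 0.72. Their summed signal over all 6 was 1781 in Phc2 L307R and 813.4 in wild type. Of 12 fibroblast markers 11 were above 0, with a median of 0.43 and a summed signal of 185897 in Phc2 L307R and 138290 in wild type. The brightest probe sets weigh most in that sum, and 2 of them, of Vim and Fn1, were at 0.42. Other probe sets of Vim ran from -0.22 to -0.02, and that of Fn1 gave -0.33. The other probe sets of Col1a1, Col1a2, Col3a1 and Col5a1 lay above 0, from 0.29 to 0.42. Lum at 1.03, the only fibroblast marker past 2-fold, and Dcn at 0.88 were farthest from 0. Farthest from 0 among the osteoblast markers were Ibsp at 2.12 (2.34 at another probe set) and Dlx5 at 1.15, while Omd was at -0.33. Among the chondrocyte markers they were Cnmd at 1.69 or more, Matn1 at 1.62 or more and Col11a2 at 1.31, while Sox9 was at -0.29 (-0.08 at another probe set). Dmp1 among the osteoblast markers and Ucma and Col9a2 among the chondrocyte markers lay below the floor on both arrays.

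The remaining lists are read against the same shares: 59.1% of all measured genes above 0, 0.579% at least 2-fold higher and 0.535% at least 2-fold lower. Of 8 lymphatic endothelial markers on the array, 3 were measured, and the summed signal was 5064 in Phc2 L307R and 2709 in wild type. Pdpn, which mesenchymal cells also express, was at 3107 in Phc2 L307R and 983.7 in wild type, a log2 ratio of 1.66. Fxyd6 was at 0.45 and Foxc2 at 0.16. Prox1 and Lyve1, which define lymphatic endothelium, lay below the floor on both arrays. Of 14 macrophage markers, 5 were measured, 4 of them above 0 and 1 past 2-fold, with a median of 0.57. The summed signal of all 14 was 1288 in Phc2 L307R and 932.1 in wild type. Laptm5 was at 1.00 (-0.06 at another probe set), Csf1r at 0.57 (0.25 to 0.61 at others), Lyz2 at 0.57, Adgre1 at 0.55 and Cd68 at -0.11. Ptprc and C1qa lay below the floor on both arrays. Of 9 measured pericyte and smooth muscle markers, 5 were above 0, with a median of 0.06 and a summed signal of 42182 in Phc2 L307R and 34936 in wild type. Myh11 was at 0.71 and Rgs5 at -0.64 (-1.68 to -0.56 at others). Of 9 measured neural markers, 5 were above 0, with a median of 0.26 and a summed signal of 6547 in Phc2 L307R and 5510 in wild type. Map2 was at -1.31 (-1.47 to -0.23 at others) and Stmn2 at 1.01 (1.14 at another probe set).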

How the data were processed

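Per the labels' protocols, biotin was built into cRNA made from total RNA of each culture. The authors deposited linear intensity values for 45101 probe sets, made with MAS5 in Affymetrix Expression Console according to the submitters' processing notes. The sources used here do not state the scaling of the arrays. With 2% trimmed at each end of all probe sets, controls included, both means were 500.003. No detection calls were used.

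The 64 control probe sets were left out of the medians, ratios and counts. Of the rest, 34945 had 1 symbol, 932 several and 9160 none listed; 34741 symbols were matched by gene ID to the RefSeq table of GRCm38.p6. Of 18193 genes, each represented by its brightest probe set (mean of log2 signals), 11408 were measured. Calculations used Python 3.11.15, pandas 2.3.3, numpy 2.4.6 and statsmodels 0.14.6, and were tested on simulated arrays. There were 2 arrays, so counts by fold (threshold 2) replace tests.

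The members and the 14 gene lists were chosen with earlier results of these data known. Named genes were all members, up to 4 measured genes farthest from 0 in each list described, and genes next to Vegfd in log2 ratio. Other genes named, such as Furin, Pcsk6, Pcsk7, Adamts3, Eng, Sox9, Omd, Vim, Fn1, Col1a1, Col1a2, Cd68 and markers below the floor, were chosen after their values were seen. Alternatives were quantile normalization, loess (span 0.4, 3 iterations), centring, floors at percentiles 40 and 60, no floor, a pseudocount, other choices of probe sets, and thresholds of 1.5 and 3.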

Additional observations from a re-analysis of the deposited data

How the results depend on the processing

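Vegfd was the only member past 2-fold under 8 of the 9 alternatives that keep this threshold, and 0 members were 2-fold lower under all 9. With the mean over probe sets its log2 ratio was 0.65 and the count of higher members was 0, because its other probe sets gave smaller ratios. At a threshold of 3-fold the count was also 0, and at 1.5-fold it was 1. Probe set 1449528_at gave 1.34 to 1.54. The log2 ratio of Vegfc was -0.31 with its brightest probe set, 0.03 with the mean and 0.33 without _x_at and _s_at probe sets. The signs of Kdr, Flt4 and Nrp1 each changed under 1 of 9 alternatives: Kdr was at -0.01 with centred ratios, and Flt4 and Nrp1 were at 0.02 and 0.15 with the mean over probe sets. The family median ran from -0.07 to 0.15. Pgf was not measured with the floor at percentile 60. No paired analysis was possible because each genotype had 1 array. Without replicates, nothing here separates the allele from differences between cultures, and signals near the floor of 94.8, such as those of 1421442_at of Flt4, carry little information.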
